A study of Neurospora crassa with 12 samples.

Results

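The genes described here are 8 *Neurospora crassa* genes listed as regulators of conidiation (asexual spore formation), and are called regulators below after this list. They are *fluffy* (*fl*, NCU08726), *acon-2* (NCU00478), *acon-3* (NCU07617), *csp-1* (NCU02713), *csp-2* (NCU06095), *rca-1* (NCU01312), *ve-1* (NCU01731) and *ada-1* (NCU00499). They were picked by locus tag, with no cut on their values, from count tables that list 9730 genes. Earlier results of these data were known when they were chosen. The levels come from RNA-Seq of germlings of 2 strains, the mutant labelled *mus-52*, in which this gene for a subunit of the Ku complex of non-homologous end joining is replaced by a hygromycin resistance cassette, and the wild type, labelled 74A. Conidia from cultures 6 days old were shaken for 5 h at 30 °C with 44 mM sucrose and either 10 mM inorganic phosphate (high-Pi) or 10 µM (low-Pi). Each strain and medium had 3 libraries (replicates I, II and III), described as biological triplicates. Each strain is a single stock and the stocks are of opposite mating type, so a difference between them cannot be told apart from one of mating type or of other background.

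Conidiation in *N. crassa* starts when aerial hyphae begin to bud, goes on through chains of proconidia, and ends when crosswalls mature and the spores separate. Genetic work has ordered regulators along this path: *acon-2* mutants stop at early budding, *acon-3* and *fl* mutants stop before the chains become deeply constricted, and *csp-1* and *csp-2* mutants form spores that stay joined. The libraries were made from germinating spores in shaken liquid culture, an early stage of vegetative growth.

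Levels are given as CPM (counts divided by a library size scaled with TMM factors), and levels of different genes are compared only after division by the length of the gene in kb, introns included. The libraries held 17574263 to 56152963 counts. In correlations of log2 CPM over all tested genes, wild-type replicate I stood apart in both media (r = 0.931 to 0.951 with replicates II and III, against at least 0.988 for every other pair of replicates). Results of the regulators that rest on it are given without it too, while those of other genes are not. *mus-52* was counted in every library, at 21.0 to 27.1 CPM in the libraries labelled *mus-52* and at 19.5 to 75.9 CPM in the wild type, so these counts do not separate the strains as a deletion would and every strain direction below is given by the labels. Its log2 fold change between the strains was −1.02 in high-Pi, with no overlap (edgeR adjusted p = 0.0439), and −0.11 in low-Pi (edgeR adjusted p = 0.825). All 9 genes of a list of conidial markers were counted in every library except *con-13*, which had 0 counts in wild-type low-Pi replicate I. Their summed level was 67.8 to 85.0 CPM in the libraries labelled *mus-52* and 181 to 236 CPM in the wild type in high-Pi. In low-Pi it was 72.8 to 130 CPM in the libraries labelled *mus-52*, against 76.0, 293 and 287 CPM in wild-type replicates I, II and III. In the wild type most of this sum came from *cat-1*, *ccg-14* and *ccg-9*, which averaged 93.3, 62.5 and 32.6 CPM in high-Pi and 42.3, 103 and 54.3 CPM in low-Pi. The markers did not move as one. In the libraries labelled *mus-52*, 1 of the 9 rose and 3 fell in high-Pi (*con-6* rose, *ccg-9*, *ccg-14* and *cat-1* fell), and 2 rose and 3 fell in low-Pi (*con-10* and *con-13* rose, *ccg-9*, *ccg-13* and *ccg-14* fell). Among these, *ccg-9* and *ccg-13* still overlapped between the strains in low-Pi. Of all tested genes, 48.8% rose or fell between the strains in high-Pi and 38.4% in low-Pi (edgeR adjusted p at most 0.05). The part of these marker differences in the strain differences below was not tested, and in bulk RNA fewer cells of a type and less RNA per cell cannot be told apart.

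Of the 8 regulators, 7 were among the 7746 genes that passed the filter on low counts. *csp-2* (chromosome VII of the NC12 assembly, 1812241 to 1816456), a grainyhead-like factor needed for spore separation, did not pass. It had 1 count in wild-type high-Pi replicate II (0.0607 CPM) and 0 in the other 11 libraries, where a count of 0 allows up to 0.0535 to 0.167 CPM. It was not detectable in these counts, and no comparison was made for it. *csp-2* and *acon-2* are the only 2 of the 8 with more than 1 annotated transcript. Of all 898 such genes 38.2% passed the filter, against 83.8% of the 8831 genes with 1 transcript, and how reads on such genes were counted is not given in the sources used here. In the further gene lists described below, 6 of 10 genes with more than 1 annotated transcript passed, against 30 of 30 with 1. The low levels of *csp-2* and *acon-2* therefore carry this uncertainty, and low expression and the way of counting cannot be told apart.

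The 7 measured regulators covered a wide range of levels, as the plot of levels by library shows. *csp-1* and *ve-1* were abundant transcripts in these germlings, higher per kb than 93.1% and 84.3% of the 7745 tested genes with a known length, and *rca-1* was higher than 68.4%. *ada-1*, *fl* and *acon-3* ranked lower, above 37.2%, 25.7% and 15.7% of genes, and *acon-2* ranked above only 1.54%. By mean level per kb the order was *csp-1*, *ve-1*, *rca-1*, *ada-1*, *fl*, *acon-3*, *acon-2* in each of the 4 groups. In the libraries labelled *mus-52* the first places were not separated beyond their spread, with 71.0 ± 27.0 CPM per kb for *csp-1* and 53.5 ± 4.97 for *ve-1* in high-Pi (SD, n = 3). In low-Pi of the same strain they were 84.6 ± 21.6 and 68.5 ± 4.30 CPM per kb. In the wild type *csp-1* reached 155 ± 83.6 CPM per kb in high-Pi and 228 ± 33.1 in low-Pi, against 55.7 ± 0.870 and 54.5 ± 8.08 for *ve-1*. *ada-1* and *fl* were likewise within their spread of each other in the wild type, at 4.19 ± 3.56 and 2.07 ± 0.718 CPM per kb in high-Pi and 4.17 ± 1.31 and 2.26 ± 0.778 in low-Pi, but not in the libraries labelled *mus-52*. In wild-type high-Pi *ada-1* and *fl* were also within their spread of *acon-3*, at 1.7 ± 0.115 CPM per kb.

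**Figure D1:**
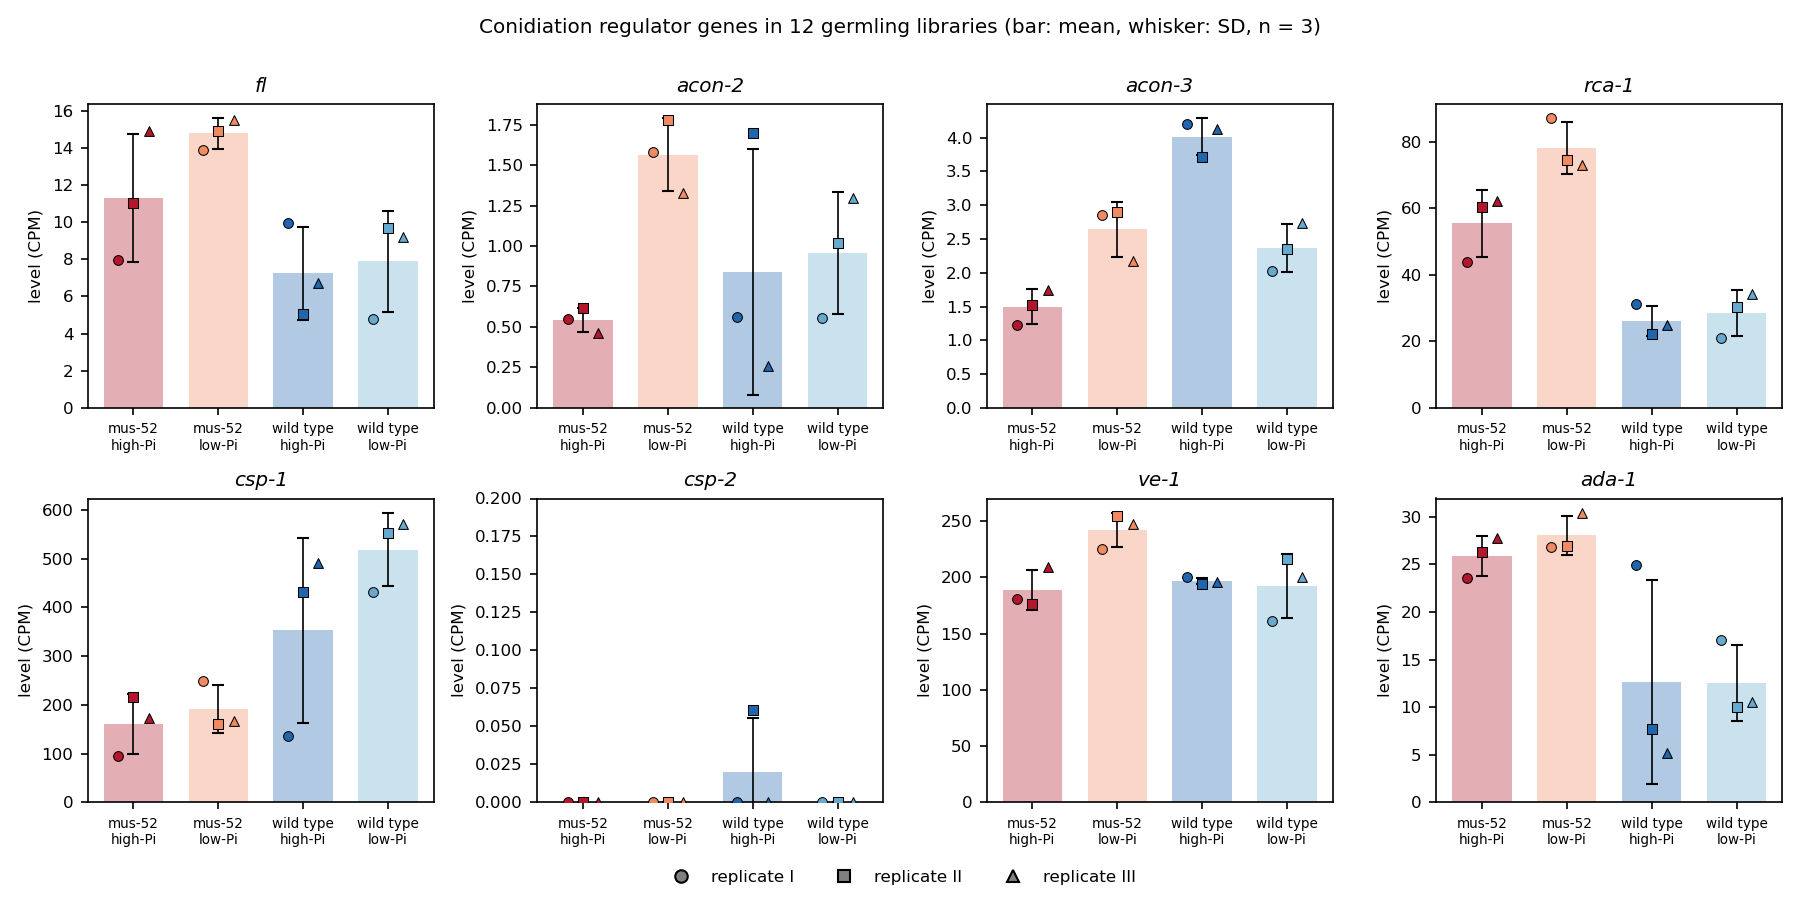
Level of each conidiation regulator (CPM, linear axes from 0) in the 12 libraries. Bars are means and whiskers the SD of 3 replicates, and the symbols mark replicates I, II and III. The 6 libraries labelled *mus-52* lie between 44.0 and 87.1 CPM for *rca-1*, above all 6 wild-type libraries, while for *csp-1* wild-type high-Pi replicate I lies at 136 CPM, away from the 432 and 491 CPM of replicates II and III.

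The first question was whether the regulators differed between the strains. In the strain labelled *mus-52*, *rca-1* was up-regulated and *acon-3* and *csp-1* were down-regulated in high-Pi, while *rca-1* and *fl* were up-regulated and *csp-1* was down-regulated in low-Pi. Thus 3 of the 7 measured regulators passed an adjusted p of 0.05 in each medium. Of all tested genes, 48.8% passed in high-Pi (23.5% higher and 25.3% lower) and 38.4% in low-Pi (17.9% higher and 20.5% lower), so the share among the regulators was near that of all genes. None was a DEG, for which the log2 fold change also had to reach 1.5 upwards or downwards (19.0% of all genes in high-Pi and 13.3% in low-Pi). The median log2 fold change of the 7 genes was −0.06 in high-Pi and 0.71 in low-Pi, against −0.02 and 0.07 for all genes tested. The libraries of the strains did not overlap for 2 of the 7 genes in high-Pi (60.5% of all genes) and for 6 of 7 in low-Pi (54.8% of all genes). Adjusted p-values here and below come from the quasi-likelihood test of edgeR, adjusted after Benjamini and Hochberg over 7746 genes.

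*rca-1* (chromosome V, 3617075 to 3618886) encodes a Myb-type protein related to FlbD, an activator of conidiation in *Aspergillus nidulans*. Whether *rca-1* acts in the conidiation of *N. crassa* was not tested here. In high-Pi it had 44.0, 60.4 and 62.2 CPM in replicates I, II and III labelled *mus-52*, against 31.3, 22.3 and 24.9 CPM in the wild type. In low-Pi the libraries labelled *mus-52* had 87.1, 74.6 and 73.0 CPM, and those of the wild type 21.0, 30.4 and 34.4 CPM. Every library labelled *mus-52* lay above every wild-type library, in both media. *rca-1* rose by a log2 fold change of 1.08 in high-Pi (standard error 0.221, 95% interval 0.60 to 1.57, edgeR adjusted p = 0.00365) and of 1.45 in low-Pi (standard error 0.223, 95% interval 0.96 to 1.94, edgeR adjusted p = 0.00174). Both calls were made in all 12 fits that left out 1 library, with log2 fold changes of 1.00 to 1.24 and 1.19 to 1.60.

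*ada-1* (chromosome I, 8217078 to 8220083) encodes a bZIP transcription factor whose loss alters growth, conidiation and sexual development. The libraries labelled *mus-52* had 23.6, 26.3 and 27.8 CPM in high-Pi, against 24.9, 7.71 and 5.21 CPM in wild-type replicates I, II and III. In low-Pi the values were 26.8, 26.9 and 30.4 CPM in the libraries labelled *mus-52*, against 17.1, 10.0 and 10.5 CPM in the wild type. The strains overlapped in high-Pi through wild-type replicate I, which was as high as the libraries labelled *mus-52*, and did not overlap in low-Pi. The log2 fold changes of 1.03 (95% interval 0.02 to 2.03, edgeR adjusted p = 0.0839) and 1.16 (95% interval 0.14 to 2.18, edgeR adjusted p = 0.0657) did not pass. Without wild-type high-Pi replicate I they were 2.01 and 1.16, with edgeR adjusted p = 0.000391 and 0.00273. *ada-1* shares 424 bases with its neighbour NCU16460, and because the use of strand in counting is not given their reads may be mixed. NCU16460 itself rose in low-Pi (log2 fold change 1.16, edgeR adjusted p = 0.0245).

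*ve-1* (chromosome II, 2607929 to 2611456) encodes the velvet protein, the counterpart of *Aspergillus* VeA, which links light to the balance of asexual and sexual development. It had 181, 176 and 209 CPM in the libraries labelled *mus-52* and 200, 194 and 196 CPM in the wild type in high-Pi. In low-Pi it had 225, 254 and 247 CPM in the libraries labelled *mus-52*, against 161, 216 and 200 CPM in the wild type. The strains overlapped in high-Pi, and the low-Pi libraries labelled *mus-52* lay above those of the wild type. Neither difference passed, with log2 fold changes of −0.06 (95% interval −0.40 to 0.28, edgeR adjusted p = 0.766) and 0.33 (95% interval −0.01 to 0.67, edgeR adjusted p = 0.106). *ve-1* was the steadiest of the regulators, with an SD of 0.192 in log2 CPM over the 12 libraries. Only 4.69% of genes had a smaller SD, and the median gene had 0.541. The other 6 ranged from 0.546 for *acon-3* to 0.887 for *csp-1*.

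Of the early-acting genes, *acon-3* (chromosome IV, 271905 to 274263) had 1.23, 1.52 and 1.74 CPM in the libraries labelled *mus-52* and 4.21, 3.71 and 4.13 CPM in the wild type in high-Pi. In low-Pi it had 2.86, 2.90 and 2.17 CPM in the libraries labelled *mus-52* and 2.03, 2.35 and 2.74 CPM in the wild type. The strains were apart in high-Pi, with every library labelled *mus-52* lower, and overlapped in low-Pi. *acon-3* fell by 1.43 on the log2 scale in high-Pi (standard error 0.229, 95% interval −1.93 to −0.93, edgeR adjusted p = 0.00116), a call made in all 12 fits without 1 library. Its low-Pi log2 fold change was 0.16 (95% interval −0.34 to 0.66, edgeR adjusted p = 0.593). These levels rest on 37 to 180 counts a library.

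*acon-2* (chromosome III, 3992335 to 3997769) was near the lower end of detection, with 5 to 63 counts a library. It had 0.552, 0.615 and 0.463 CPM in the libraries labelled *mus-52* and 0.561, 1.70 and 0.258 CPM in the wild type in high-Pi. In low-Pi the libraries labelled *mus-52* had 1.58, 1.78 and 1.33 CPM, and those of the wild type 0.554, 1.02 and 1.30 CPM. The wild-type replicates spread widely, and the strains were apart only in low-Pi, by a narrow margin. The log2 fold changes of −0.57 (95% interval −1.78 to 0.64) and 0.71 (95% interval −0.44 to 1.86) had edgeR adjusted p = 0.404 and 0.29. The high-Pi value lay between −0.96 and 0.35 when single libraries were left out, so no direction can be given for it.

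*fl* (chromosome II, 3805777 to 3809265) encodes a zinc cluster transcription factor that is the main activator of macroconidiation. In high-Pi it had 7.98, 11.0 and 14.9 CPM in the libraries labelled *mus-52* and 9.96, 5.04 and 6.71 CPM in the wild type. In low-Pi the values were 13.9, 14.9 and 15.5 CPM in the libraries labelled *mus-52* and 4.76, 9.67 and 9.22 CPM in the wild type. The strains overlapped in high-Pi and were apart in low-Pi, where all 3 libraries labelled *mus-52* were higher. *fl* rose by a log2 fold change of 0.90 in low-Pi (standard error 0.330, 95% interval 0.18 to 1.63, edgeR adjusted p = 0.0492), and its high-Pi log2 fold change of 0.63 did not pass (95% interval −0.09 to 1.35, edgeR adjusted p = 0.13). The low-Pi call was kept in only 1 of the 12 fits without 1 library, that without wild-type high-Pi replicate I (adjusted p from 0.0293 to 0.131 over the 12). The lowest log2 fold change, 0.57, came without wild-type low-Pi replicate I.

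*csp-1* (chromosome I, 3284468 to 3286740) encodes a C2H2 zinc finger protein needed for the separation of conidia and also part of the output of the circadian clock. It had 94.8, 216 and 174 CPM in the libraries labelled *mus-52* and 136, 432 and 491 CPM in the wild type in high-Pi. In low-Pi it had 249, 161 and 167 CPM in the libraries labelled *mus-52*, against 432, 552 and 571 CPM in the wild type. The strains overlapped in high-Pi through wild-type replicate I and were apart in low-Pi, with every library labelled *mus-52* lower. *csp-1* fell by 1.13 on the log2 scale in high-Pi (standard error 0.430, 95% interval −2.07 to −0.18, edgeR adjusted p = 0.0481) and by 1.43 in low-Pi (standard error 0.433, 95% interval −2.38 to −0.48, edgeR adjusted p = 0.0253). The high-Pi call was kept in 2 of the 12 fits without 1 library, those without wild-type replicate I of either medium (log2 fold changes −1.51 to −0.82, adjusted p from 0.00347 to 0.18) and the low-Pi call in 8 of 12 (−1.66 to −1.36), being lost without replicate II or III of either strain in low-Pi.

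**Figure D2:**
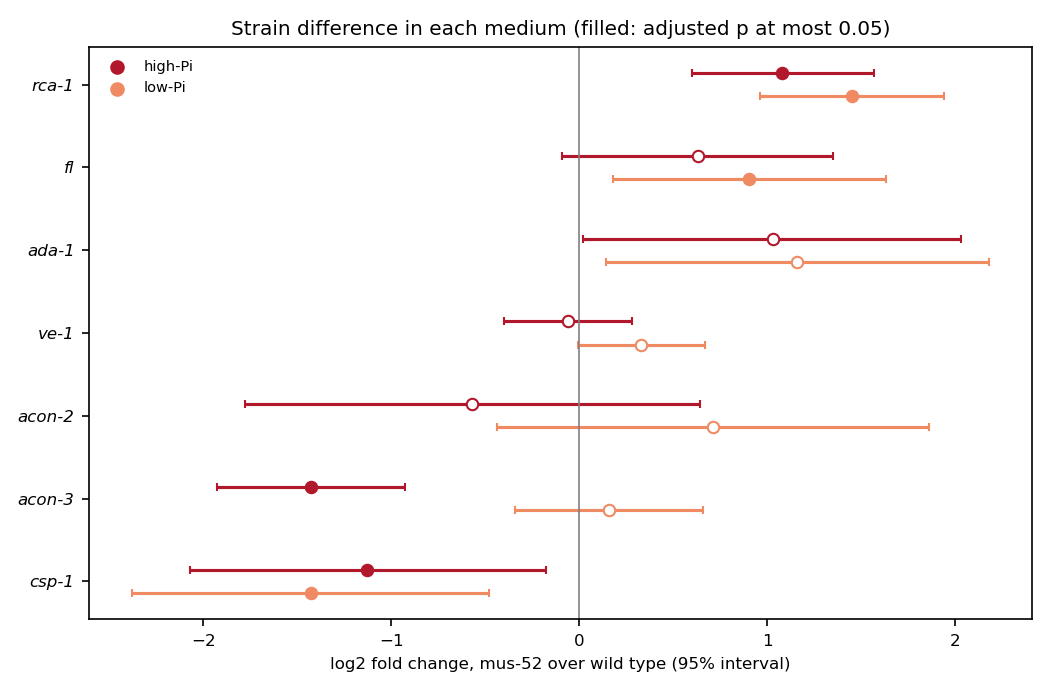
Log2 fold change of the 7 measured regulators, libraries labelled *mus-52* over wild type, in high-Pi and low-Pi with 95% intervals. Filled points had an edgeR adjusted p of at most 0.05. The values run from −1.43 for *acon-3* in high-Pi and for *csp-1* in low-Pi to 1.45 for *rca-1* in low-Pi, and *rca-1* and *csp-1* are filled in both media.

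With replicate I left out of both wild-type groups, a setting chosen after seeing the data, 5 of the 7 regulators passed in high-Pi and 4 in low-Pi. *fl* (log2 fold change 0.89, edgeR adjusted p = 0.00212) and *ada-1* (1.97, edgeR adjusted p = 1.33e-08) then rose in high-Pi, and *ada-1* also rose in low-Pi (1.37, edgeR adjusted p = 5.56e-07). Over all genes this setting called 5515 of 7804 in high-Pi and 5622 in low-Pi, against 3780 and 2975 of 7746 with all libraries.

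The counts of *rca-1*, *fl* and *ada-1* were also set against those of *csp-1* within each library, where the scaling of library sizes cancels. This ratio was chosen after the levels were seen and is given without a test. *csp-1* itself was lower in the libraries labelled *mus-52*, so a ratio to it can separate the strains without a change in the other gene. In low-Pi the levels of *acon-3* overlapped between the strains. Its low-Pi ratio to *csp-1* was still 0.0115 to 0.018 in the libraries labelled *mus-52* and 0.00426 to 0.0048 in the wild type. The ratio of *rca-1* to *csp-1* counts was 0.464, 0.28 and 0.358 in the high-Pi libraries labelled *mus-52* and 0.229, 0.0516 and 0.0508 in the wild type. In low-Pi it was 0.35, 0.464 and 0.436 in the libraries labelled *mus-52* and 0.0485, 0.0551 and 0.0603 in the wild type. The strains did not overlap in either medium, and wild-type high-Pi replicate I came nearest to the libraries labelled *mus-52*. The ratio of *fl* to *csp-1* was 0.0508 to 0.0927 in the libraries labelled *mus-52* and 0.011 to 0.0175 in the wild type except for high-Pi replicate I, at 0.073. The ratio of *ada-1* to *csp-1* was 0.108 to 0.249 in the libraries labelled *mus-52* and 0.0106 to 0.0395 in the wild type, again except for high-Pi replicate I, at 0.182.

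**Figure D3:**
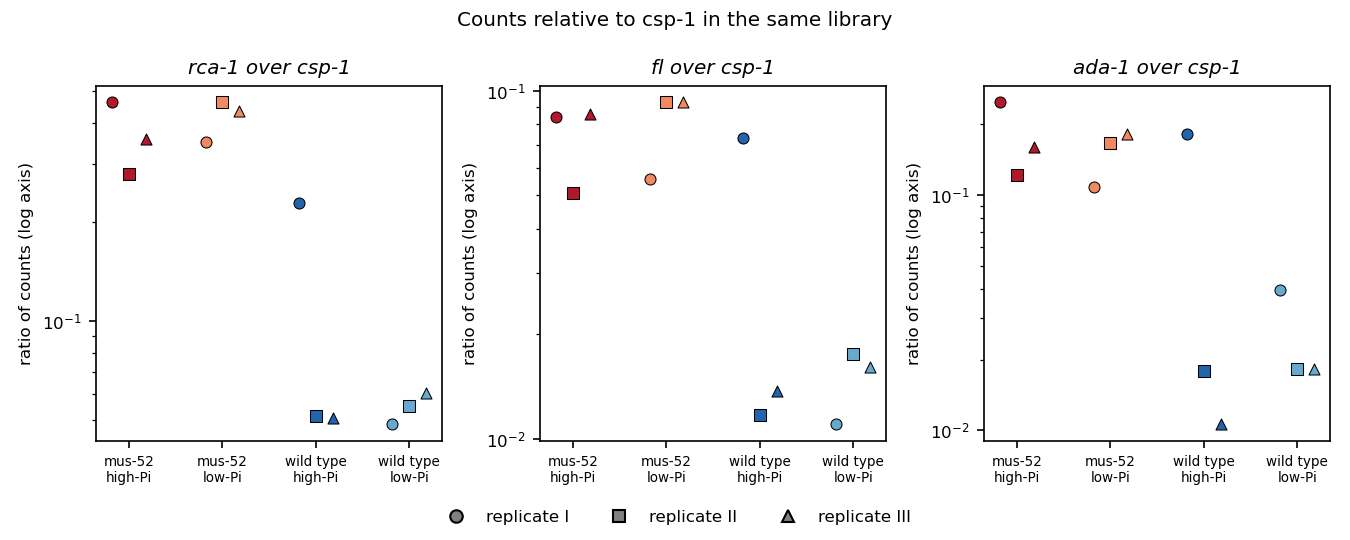
Counts of *rca-1*, *fl* and *ada-1* divided by the counts of *csp-1* in the same library (log axes), by group, with symbols for replicates I, II and III. In all 3 panels wild-type high-Pi replicate I, at 0.229, 0.073 and 0.182, lies well above the other 5 wild-type libraries. *csp-1* itself was lower in the libraries labelled *mus-52*, so the ratios carry that difference too.

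The second question was whether the regulators responded to Pi. In the libraries labelled *mus-52* 0 of the 7 genes passed an adjusted p of 0.05 in edgeR's test between high-Pi and low-Pi, where 4.71% of all genes did. At an unadjusted p under 0.05 there were 4 regulators (16.6% of all genes), and DESeq2 called 1 (8.67% of its genes), *acon-3*, with a log2 fold change of −0.80 (adjusted p = 0.0253). The 4 were *acon-2*, *acon-3*, *rca-1* and *ve-1*, and for each of them every high-Pi library lay below every low-Pi library, as for 46.5% of all genes. *acon-2* averaged 0.544 ± 0.0763 CPM in high-Pi and 1.56 ± 0.223 CPM in low-Pi (SD, n = 3 each), a log2 fold change of −1.53 (95% interval −2.69 to −0.37, edgeR adjusted p = 0.149). *acon-3* averaged 1.5 ± 0.258 CPM in high-Pi and 2.64 ± 0.411 CPM in low-Pi, a log2 fold change of −0.83 (95% interval −1.33 to −0.33, edgeR adjusted p = 0.069). *rca-1* averaged 55.6 ± 10.0 CPM in high-Pi and 78.2 ± 7.69 CPM in low-Pi, and *ve-1* 189 ± 17.5 and 242 ± 15.2 CPM. Their log2 fold changes were −0.49 (edgeR adjusted p = 0.283) and −0.36 (edgeR adjusted p = 0.267).

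These 4 genes did pass in some other fits, but not in most. With RLE factors, no filter, at least 10 counts in every library or replicate blocks, 0 regulators passed (3.87% to 6.57% of all genes). With replicate I left out of all 4 groups 1 passed (25.2% of all genes), *ve-1*, with edgeR adjusted p = 0.0197. With only the 6 libraries labelled *mus-52* in the fit, *acon-2*, *acon-3*, *rca-1* and *ve-1* fell (log2 fold changes −1.54, −0.84, −0.49 and −0.36, edgeR adjusted p = 0.00212, 0.0184, 0.0172 and 0.0186). That fit called 2411 of 7613 genes, against 365 of 7746 in the fit of all 12 libraries. Without replicate I of both wild-type groups, which left all 6 libraries labelled *mus-52* in place, the same 4 genes fell, with edgeR adjusted p = 0.0111, 0.0112, 0.00609 and 0.0117, and 2589 of 7804 genes were called. The remaining *fl*, *csp-1* and *ada-1* overlapped between the media, with log2 fold changes of −0.39, −0.25 and −0.11.

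In the wild type 0 of the 7 regulators passed in edgeR's test between the media (0.478% of all genes), 1 had an unadjusted p under 0.05 (13.3% of all genes), and DESeq2 called 0 (3.70% of its genes). The 1 gene was *acon-3*, with 4.01 ± 0.271 CPM in high-Pi and 2.38 ± 0.356 CPM in low-Pi (SD, n = 3 each). Its high-Pi libraries lay above its low-Pi libraries (12.7% of all genes had no overlap, in either direction), and its log2 fold change was 0.76 (95% interval 0.26 to 1.26, edgeR adjusted p = 0.187). The other 6 had log2 fold changes between −0.55 for *csp-1* and 0.03 for *ve-1*. Only the interval of *ve-1*, from −0.31 to 0.37, was narrow, while that of *acon-2* ran from −1.46 to 0.95 and that of *ada-1* from −0.99 to 1.03. Without replicate I of both wild-type groups *ada-1* fell, with a log2 fold change of −0.69 (edgeR adjusted p = 0.017), where all libraries gave 0.02.

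The third question was whether the strains differed in their response to Pi, which was tested in the same 12 libraries as the difference of the log2 fold changes. *acon-3* passed, and it was the only 1 of the 7 regulators to do so (5.94% of all genes). Its high-Pi over low-Pi log2 fold change was −0.83 in the libraries labelled *mus-52* and 0.76 in the wild type, a difference of −1.59 (standard error 0.323, 95% interval −2.29 to −0.88, edgeR adjusted p = 0.0148). The difference also passed the fold change threshold of a DEG, as for 4.26% of all genes. In the libraries labelled *mus-52* the lower values of *acon-3* were those of high-Pi, and in the wild type those of low-Pi, with no overlap in either strain. The call was kept in 9 of the 12 fits without 1 library, with differences of −1.70 to −1.38. It was lost, with edgeR adjusted p = 0.0617, 0.0595 and 0.0656, without replicate I or II of the high-Pi libraries labelled *mus-52* or replicate II of their low-Pi libraries. For the other 6 regulators the difference did not pass, with edgeR adjusted p from 0.367 to 0.937, and the intervals were wide, from −2.95 to 0.39 for *acon-2* and from −1.02 to 1.62 for *csp-1*.

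**Figure D4:**
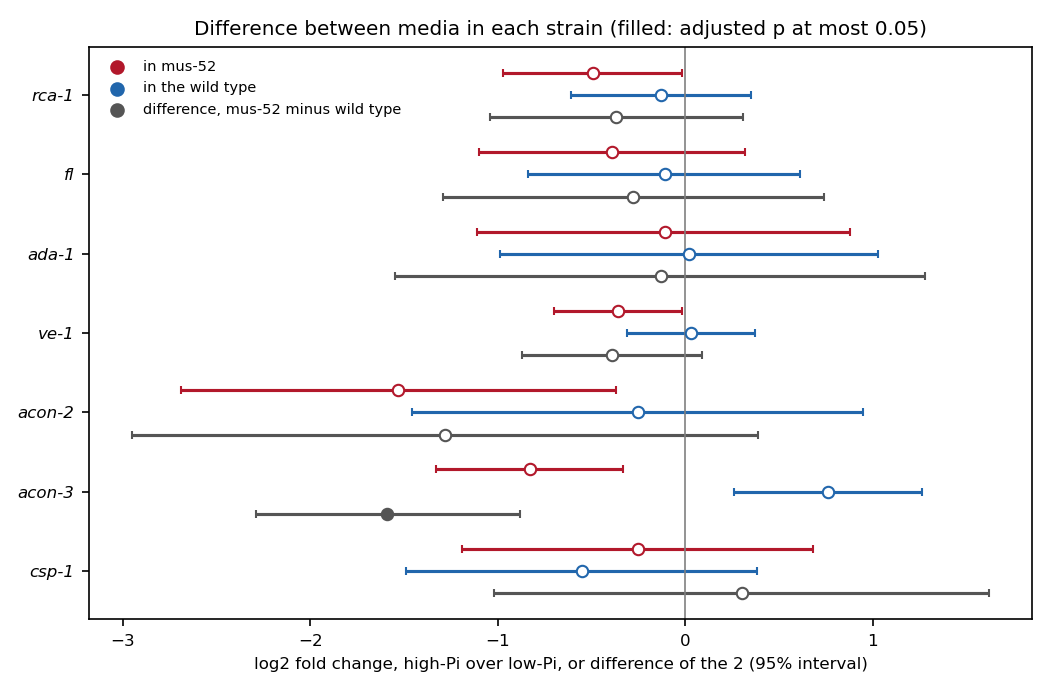
Log2 fold change of the 7 measured regulators, high-Pi over low-Pi, in the libraries labelled *mus-52* and in the wild type, and the difference of these values, with 95% intervals. Filled points had an edgeR adjusted p of at most 0.05. The filled point is the difference for *acon-3*, at −1.59.

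To place the regulators among other genes, patterns over the 12 libraries were compared by the root mean square difference of log2 CPM after each gene was centred on its own mean. This describes likeness in libraries that share strain, medium and depth, and has no test. *fl* and *rca-1* were the closest of the 21 pairs of regulators (0.305) and *csp-1* and *ada-1* the farthest apart (1.59). NCU02355 was the nearest gene to both *rca-1* (0.192) and *fl* (0.224), where the median gene differed by 0.802 and 0.727. The next nearest were NCU08527 for *rca-1* (0.206) and NCU02026 for *fl* (0.241). *ada-1* was nearest to NCU03444 (0.152) and to *Asm-1* (NCU01414, 0.166), which encodes an APSES-type transcription factor. *acon-3* was nearest to *gh76-3* (NCU08127, 0.215) and NCU00755 (0.224), and *csp-1* to NCU03467 (0.281) and NCU02282 (0.319). *ve-1* had the closest neighbours, NCU06269 (0.0595) and NCU05536 (0.097), and *acon-2* the loosest, NCU02638 (0.41) and NCU08842 (0.465).

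Other genes of the conidiation pathway were followed as 3 lists. A list of 15 further regulators and light or clock genes had 12 measured members, of which 2 rose and 2 fell in high-Pi and 3 rose and 2 fell in low-Pi between the strains. The unmeasured members of this list (*vib-1*, *sub-1* and *rcm-1*) each had 2 annotated transcripts and 0 counts. Of all genes, the background for each of the 3 lists, 48.8% passed in high-Pi and 38.4% in low-Pi. Those that passed in both media included *wc-1*, a blue-light receptor of the white collar complex (log2 fold changes −1.69 in high-Pi and −2.43 in low-Pi), and its partner *wc-2* (0.58 and 0.72). The third was *sah-2* (NCU04731), with −1.71 and −2.06. Thus *wc-1* was down-regulated while *wc-2* was up-regulated. Of 11 signalling genes 10 were measured, of which 2 rose and 3 fell in high-Pi and 1 rose and 2 fell in low-Pi. *nrc-2*, a kinase gene whose loss releases conidiation (log2 fold changes −1.11 and −1.17), *os-2*, the MAP kinase of the osmosensing cascade (−0.75 and −0.49), and *gna-1*, a G protein alpha subunit (0.44 and 0.53), passed in both media. All 14 genes of a list of conidial products and pigment enzymes were measured, of which 3 rose and 4 fell in high-Pi and 2 rose and 3 fell in low-Pi. *ccg-9*, for a trehalose synthase (−2.42 and −2.59), and *ccg-14* (−1.76 and −2.63) fell in both. In low-Pi the strains overlapped for *ccg-9*, at 7.05 to 10.4 CPM in the libraries labelled *mus-52* and 8.92 to 80.6 CPM in the wild type. The median log2 fold changes in high-Pi and low-Pi were 0.19 and 0.47 for the further regulators, 0.23 and −0.21 for the signalling genes, and −0.66 and −0.15 for the products, against −0.02 and 0.07 for all genes. Between the media 0 of the further regulators and 0 signalling genes passed in either strain by edgeR's test or DESeq2. At an unadjusted p under 0.05 there were 0 of the further regulators and 1 signalling gene in each strain. Of the products 1 fell in the libraries labelled *mus-52* and 1 rose in the wild type with high-Pi, where DESeq2 called 4 and 1 and an unadjusted p under 0.05 was reached by 7 and 4. In the difference of the responses 0 of the further regulators and 0 signalling genes passed by edgeR's test or DESeq2 (0 and 2 at an unadjusted p under 0.05), and 1 product rose and 2 fell (5 called by DESeq2, 7 at an unadjusted p under 0.05). Of all genes, edgeR's test between the media called 4.71% in the libraries labelled *mus-52* and 0.478% in the wild type. DESeq2 called 8.67% and 3.70% of its genes, and 16.6% and 13.3% had an unadjusted p under 0.05. For the difference edgeR's test called 5.94% and DESeq2 10.3%. There 1520 of 7746 genes had an unadjusted p under 0.05.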

How the data were processed

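RNA-Seq counts of 12 libraries were analysed. The authors trimmed the reads, mapped them to the NC12 genome with Bowtie2 (2.1.0 in their processing notes) and deposited raw counts per gene. The counting tool and its use of strand are not given in the sources used here. Deposited DESeq (1.28.0) tables hold the authors' group means, fold changes and p-values and were not used. All columns were assigned to a library.

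Counts were scaled with TMM factors and filtered with filterByExpr, which left 7746 genes. edgeR 4.0.16 (R 4.3.3, limma 3.58.1) fitted 4 groups with robust quasi-likelihood (common dispersion 0.0868), with Benjamini-Hochberg adjustment over all genes tested. A gene rose or fell at an adjusted p of at most 0.05, and a DEG also reached a log2 fold change of 1.5 upwards or downwards. Log2 CPM values had a prior count of 2. The fit was tested on simulated data. Symbols and positions came from a RefSeq table of NC12, which matched 9729 gene IDs. Intervals at 95% are from the fit, and the limit for a count of 0 is 3 counts, covering counting error only.

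The members, gene lists and tests were chosen with earlier results of these data known. The text names all 8 members, *mus-52*, up to 4 genes a list that passed in both strain comparisons with the largest mean change, and the 2 genes most like each member. Exceptions are stated. Alternatives were DESeq2 1.42.0, RLE factors, no filter, at least 10 counts in every library, 6 libraries only, replicate blocks, the DEG rule, and libraries left out.

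Pairing by replicate number was checked with correlations of the deviations from group means. Between high-Pi and low-Pi they were 0.357, 0.21 and 0.337 in the wild type. Deviations from a mean of 3 libraries sum to 0, so these values are not independent, and no label gives a pairing. Pairing by number and a replicate I that stood apart in both media cannot be told apart by them. The values were 0.29, 0.0945 and 0.133 in the libraries labelled *mus-52* and −0.134 to −0.0172 between the strains.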

Additional observations from a re-analysis of the deposited data

Results flagged for a closer look

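*acon-3* was the regulator whose response to Pi differed between the strains by the test of the difference itself. Its log2 fold change of high-Pi over low-Pi was −0.83 in the libraries labelled *mus-52* and 0.76 in the wild type, a difference of −1.59 (95% interval −2.29 to −0.88, edgeR adjusted p = 0.0148 with Benjamini-Hochberg adjustment). All 3 high-Pi libraries labelled *mus-52* lay below the 3 of low-Pi, and all 3 wild-type high-Pi libraries lay above those of low-Pi. DESeq2 called the same 1 regulator (10.3% of its genes).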

How the results depend on the processing

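Under the fold change threshold of a DEG 0 regulators passed between the strains in either medium. Between the media in the libraries labelled *mus-52*, where the text counts 0, DESeq2 called 1 (8.67% of its genes) and the fit of the 6 libraries alone 4 (31.7% of its genes). With replicate I left out of all 4 groups, 5 passed between the strains in high-Pi and 5 in low-Pi, 1 and 3 between the media in the libraries labelled *mus-52* and in the wild type, and 2 in the difference of the responses, while 69.7%, 71.0%, 25.2%, 18.4% and 23.9% of all genes passed in these 5 comparisons. With replicate I left out of both wild-type groups, chosen after seeing the data, the counts were 5 between the strains in high-Pi, 4 between the media in the libraries labelled *mus-52* and 1 in the wild type. Of all genes 70.7%, 33.2% and 16.1% passed in these comparisons. Leaving out 1 library gave 2 to 5 and 1 to 4 between the strains in high-Pi and low-Pi, 0 to 1 between the media in the libraries labelled *mus-52*, and 0 to 1 in the difference. Over all genes the shares in these fits were 36.4% to 58.2% and 19.0% to 59.7% between the strains in high-Pi and low-Pi. They were 1.04% to 11.2% between the media in the libraries labelled *mus-52*, and 2.75% to 8.86% in the difference. The cause of these shifts was not tested.

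The low-Pi call of *fl* was lost with RLE factors (0.82, adjusted p = 0.0708), at least 10 counts (0.0602) and 6 libraries (0.0738) in edgeR's test, and the high-Pi call of *csp-1* without the filter (0.0512) and with 6 libraries (0.0988). *ada-1* passed in low-Pi by DESeq2 (1.09, adjusted p = 0.044) and in edgeR's fit of 6 libraries (1.11, adjusted p = 0.0168). The replicate block common to both strains lost both calls (*fl* 0.93, edgeR adjusted p = 0.0548; *csp-1* −1.09, 0.0534) and called *ada-1* in high-Pi (1.25, 0.0385) and low-Pi (1.24, 0.0424). The replicate block within each strain, which a pairing by number would ask for and which was fitted for the Pi effects and their difference, changed no call among these. The block turned the Pi effect of *ada-1* in the wild type to −0.11 (common) and −0.26 (within strain) and its difference to 0.01 and 0.14.

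Values that did not pass with all libraries also changed sign. Among those below, the Pi effect of *ada-1* in the wild type then passed. Its edgeR adjusted p was 0.0198 without replicate I of all groups and 0.017 without replicate I of the wild type. Without replicate I of all groups, *csp-1* had a Pi effect of 0.25 in the libraries labelled *mus-52*, *ve-1* of −0.10 and *ada-1* of −0.68 in the wild type, and the differences were 0.45 for *fl*, 0.19 for *rca-1* and 0.60 for *ada-1*. Without replicate I of the wild type, *acon-3* was at −0.01 between the strains in low-Pi, the wild-type Pi effects were −0.11 for *ve-1* and −0.69 for *ada-1*, and the differences 0.32 for *fl* and 0.60 for *ada-1*. Over the 12 fits without 1 library, Pi effects in the libraries labelled *mus-52* ran from −0.44 to 0.09 for *csp-1* and −0.15 to 0.03 for *ada-1*. In the wild type they ran from −0.96 to 0.37 for *ada-1*, −0.42 to 0.07 for *fl*, −1.16 to 0.15 for *acon-2*, −0.09 to 0.13 for *ve-1* and −0.32 to 0.03 for *rca-1*. The differences ran from −0.45 to 0.07 for *fl*, −0.40 to 0.85 for *ada-1* and −0.08 to 0.68 for *csp-1*, and the strain effects from −0.96 to 0.35 for *acon-2* in high-Pi and −0.02 to 0.27 for *acon-3* in low-Pi. The low counts of *csp-2* and *acon-2* limit what can be said of them.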

Other observations

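Within the list of 14 conidial products and pigment enzymes, 3 genes had a response to Pi that differed between the strains (5.94% of all genes), and they are named after their values were seen. *ccg-1*, a clock-controlled gene, had a log2 fold change of high-Pi over low-Pi of −2.06 in the libraries labelled *mus-52* and of 2.31 in the wild type, a difference of −4.37 (edgeR adjusted p = 6.95e-05). *cat-1*, for a catalase of conidia, had −0.94 and 1.14, neither of which passed (edgeR adjusted p = 0.237 and 0.251), and a difference of −2.08 (edgeR adjusted p = 0.0466). *al-3*, for an enzyme of carotenoid precursor synthesis, had 0.81 and −0.73, neither of which passed (edgeR adjusted p = 0.0863 and 0.233), and a difference of 1.54 (edgeR adjusted p = 0.022).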
